A study of Mus musculus with 4 samples.

Results

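Wnt signalling keeps the crypts of the intestine supplied with dividing cells, and 10 genes that it switches on or that hold it in check were followed here through the small intestinal epithelium of mice on a control or a ketogenic diet. The members, Axin2, Rnf43, Znrf3, Nkd1, Lgr4, Sox9, Myc, Cd44, Ephb2 and Ephb3, were taken by name from the 27998 genes of the deposited matrix, and all 10 were found there. Male mice were fed either diet, their intestines were dissociated, and the single cells were captured on the 10x platform (3' v2 chemistry), with 2 libraries per diet. The sources used here give neither strain, genotype and age nor the length of feeding. The cell table repeats the library name as the donor name, so 1 library may be 1 animal or a pool, and p-values measure a spread between libraries that may be technical in part. A ketogenic diet supplies most energy as fat and little as carbohydrate.

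The 4 libraries held 3194 to 4896 cells and 27316428 to 34106639 UMIs (unique molecular identifiers, each marking 1 captured transcript). From 10 to 26 cell barcodes were shared between any pair of libraries. The authors had given every one of the 15053 cells a type: stem cells and their transit amplifying progeny, absorptive enterocytes, and the secretory goblet, Paneth, enteroendocrine and tuft cells. Of the markers listed for each type, 6 of 6 stem, 7 of 7 transit amplifying, 6 of 8 enterocyte, 5 of 7 goblet, 7 of 7 Paneth, 8 of 8 enteroendocrine and 6 of 6 tuft genes were highest in their own type. The goblet genes Muc2 and Spink4 were highest in the Paneth class, Fabp2 in goblet cells and Vil1 in tuft cells. Counts were summed per library and type, and levels are given as CPM (UMIs per 1000000 UMIs of that sum). The Paneth class was the smallest, with 35 to 56 cells per library. Of the immune markers listed, the summed level reached at most 26.6 CPM in any type, and of the stromal and endothelial markers at most 13.1 CPM.

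In the canonical pathway, Wnt ligands bind Frizzled and Lrp receptors, which stops the destruction of beta-catenin, and beta-catenin then acts with TCF factors on its target genes. Several targets feed back: Axin2 is a scaffold of the complex that destroys beta-catenin, Rnf43 and Znrf3 are membrane ubiquitin ligases that remove Frizzled from the cell surface, and Nkd1 binds Dishevelled and dampens the signal. Lgr4 is a receptor for R-spondins, which relieve the receptors of Rnf43 and Znrf3. Sox9 and Myc are transcription factors, Cd44 is a hyaluronan receptor, and Ephb2 and Ephb3 are receptor tyrosine kinases that position cells along the crypt. Signalling is strongest at the crypt base and falls towards the villus.

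The promoter windows of the members are shown because TCF factors bind short motifs, and their presence near the start site can be read directly. RefSeq windows on GRCm38.p6, the build known as mm10, matched 7 of the 10 members with 8 windows, each of 250 bases before and 50 bases after a transcript start. The motif CTTTGAA was searched on both strands, and so were CTTTGAT and CTTTGTA and also CTTTGTT. They differ only in their last 2 letters. They occurred in 0 of the 8 windows, against 16.9% of all 32851 windows. The shared core CTTTG occurred in 1 of the 8 windows, that of Cd44, against 53.9% of all windows. The 250 bases before the start follow from 5′ to 3′ for 3 members, the stem-rich Axin2, the tuft-rich Nkd1 and Cd44, because Axin2 and Nkd1 had the largest drop, as a share of the highest mean, from their highest cell type to the next and Cd44 had the window with a core. Capitals in Cd44 mark the core, read on the opposite strand, 163 bases before the start.
Axin2 (chr11:108920099-108920348, plus strand): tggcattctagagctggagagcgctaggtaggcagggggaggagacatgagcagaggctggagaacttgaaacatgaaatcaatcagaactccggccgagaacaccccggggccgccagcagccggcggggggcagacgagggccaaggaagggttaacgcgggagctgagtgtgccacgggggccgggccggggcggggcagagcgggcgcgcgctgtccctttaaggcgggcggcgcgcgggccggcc
Nkd1 (chr8:88527383-88527632, plus strand): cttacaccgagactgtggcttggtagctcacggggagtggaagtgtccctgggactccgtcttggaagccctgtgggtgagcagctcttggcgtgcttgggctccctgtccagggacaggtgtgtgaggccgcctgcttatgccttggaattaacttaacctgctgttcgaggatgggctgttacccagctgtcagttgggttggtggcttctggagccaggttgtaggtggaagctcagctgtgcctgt
Cd44 (chr2:102901666-102901915, minus strand): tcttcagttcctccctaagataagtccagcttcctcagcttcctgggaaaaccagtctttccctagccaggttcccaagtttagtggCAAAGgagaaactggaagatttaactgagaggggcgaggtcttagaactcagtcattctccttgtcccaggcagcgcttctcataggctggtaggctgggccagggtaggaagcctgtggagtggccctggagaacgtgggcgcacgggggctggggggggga
The windows of Nkd1 and Rnf43 precede RefSeq starts that lie inside the gene spans given below, which begin at 88521354 and 87662722. Bases before those span starts were not searched for these 2 genes. The absence of these letters concerns these windows only, since TCF sites also lie at greater distances from genes.

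Across cell types the members did not follow a single pattern. Axin2, Rnf43, Znrf3, Lgr4, Myc and Cd44 had their highest mean level in stem cells, Nkd1, Sox9 and Ephb2 in tuft cells, and Ephb3 in enteroendocrine cells. The deposited types were made from these same cells, so the levels by type are given as a description without a test.

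Among the feedback regulators, Axin2 (chromosome 11, 108920349 to 108950783, plus strand) stood furthest apart in stem cells. Its level there was 226 and 206 CPM in control libraries 1 and 2 and 229 and 196 CPM in ketogenic libraries 1 and 2. Transit amplifying cells followed at 53.1 ± 8.28 CPM and enterocytes at 42.8 ± 7.50 CPM (mean ± SD, n = 4 libraries, as for all means by type below), and the ranges of stem and transit amplifying cells did not overlap. The lower neighbours in the order all overlapped, down to 13.8 ± 8.31 CPM in the Paneth class. With each cell thinned to 2000 UMIs, 34.2% to 40.4% of stem cells per library had an Axin2 UMI, against 6.03% to 8.78% of enterocytes. The median depth of enterocytes was higher in every library, at 7342.0 to 9629.0 UMIs against 5646.0 to 7722.0. Without thinning the shares were 72.2% to 78.0% and 19.5% to 31.8%. Thinning left out 205 of 8445 cells on the control diet and 0 of 6608 on the ketogenic diet.

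The ubiquitin ligases Rnf43 (chromosome 11, 87662722 to 87735539, plus strand) and Znrf3 (chromosome 11, 5276324 to 5444847, minus strand) were also highest in stem cells, but with a shallower slope for Znrf3. Rnf43 went from 56.8 ± 6.84 CPM in stem cells to 25.6 ± 4.71 CPM in transit amplifying cells, 20.6 ± 5.88 CPM in enterocytes and 3.39 ± 1.13 CPM in enteroendocrine cells. Znrf3 went from 19.0 ± 1.40 CPM in stem cells to 12.7 ± 0.422 CPM in transit amplifying cells. In both genes the stem cell range lay above all other types. Transit amplifying cells, tuft cells, enteroendocrine cells and enterocytes overlapped as neighbours for Znrf3, and the Paneth class held 3 Znrf3 UMIs in all, too few for a level.

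Nkd1 (chromosome 8, 88521354 to 88594884, plus strand), the other feedback regulator, behaved differently. It lay at 61.8 and 97.4 CPM in control tuft cells and at 61.7 and 83.9 CPM in ketogenic tuft cells. All 4 values exceeded the highest value in any other type, 13.1 CPM in enteroendocrine cells of control library 1. Stem cells held 8.22 ± 1.74 CPM, and enteroendocrine cells, stem cells and the Paneth class overlapped. In thinned cells, 8.62% to 15.5% of tuft cells had an Nkd1 UMI, against 0.278% to 0.605% of enterocytes, and without thinning 24.1% to 34.4% against 1.43% to 2.28%. The tuft cell markers summed to 1788.6 to 1939.3 CPM in tuft cells and to at most 6.76 CPM in stem cells. Tuft cells are chemosensory cells of the epithelium.

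The R-spondin receptor Lgr4 (chromosome 2, 109917647 to 110014257, plus strand) was spread over all cell types. Its level was 70.8 ± 5.98 CPM in stem cells, 56.2 ± 4.20 CPM in enterocytes and 51.6 ± 6.56 CPM in transit amplifying cells, and the lowest type, enteroendocrine cells, still held 20.8 ± 2.70 CPM, 29.4% of the stem cell mean. Stem cells lay above enterocytes in all 4 libraries without overlap, whereas enterocytes, transit amplifying cells, the Paneth class, goblet cells and tuft cells overlapped as neighbours.

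Of the transcription factors, Sox9 (chromosome 11, 112782224 to 112787760, plus strand) peaked in tuft cells and Myc (chromosome 15, 61985391 to 61990374, plus strand) in stem cells. Sox9 lay at 398 and 349 CPM in control tuft cells and 352 and 389 CPM in ketogenic tuft cells, against 158 ± 7.73 CPM in stem cells, 130.5 ± 30.4 CPM in the Paneth class and 109 ± 12.0 CPM in goblet cells. Tuft cells did not overlap stem cells, and stem cells (150 to 168 CPM) lay above goblet cells (94.6 to 123 CPM) without overlap. The wide range of the Paneth class (89.3 to 162 CPM) overlapped both stem and goblet cells. Goblet cells lay above transit amplifying cells (77.7 ± 10.2 CPM) without overlap. Sox9 is also known for its part in Paneth cell formation. Myc, which promotes growth and division, went from 76.2 ± 9.69 CPM in stem cells to 52.8 ± 7.94 CPM in transit amplifying cells and 41.8 ± 12.0 CPM in enterocytes. Those neighbours overlapped in range, though each step was lower within all 4 libraries.

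Cd44 (chromosome 2, 102811141 to 102901665, minus strand) was highest in stem cells and next in tuft and enteroendocrine cells. Its means were 92.4 ± 6.77 CPM and 61.8 ± 10.1 CPM in stem and tuft cells, enteroendocrine cells lay at 37.3 to 60.4 CPM, and stem cells lay above tuft cells without overlap. Transit amplifying cells, at 37.6 to 57.4 CPM, overlapped both the tuft and the enteroendocrine range, so the order among these types was not clear. Goblet cells held 10.0 ± 1.73 CPM, below the enterocyte range (35.1 ± 10.0 CPM). The Eph receptors split. Ephb2 (chromosome 4, 136647539 to 136835988, minus strand) lay at 78.3 ± 6.47 CPM in tuft cells, 47.6 ± 5.51 CPM in stem cells and 43.7 ± 2.60 CPM in transit amplifying cells, and the step from tuft to stem cells and that from enterocytes to goblet cells were the ones free of overlap. Ephb3 (chromosome 16, 21204755 to 21223305, plus strand) lay at 35.2 ± 3.28 CPM in enteroendocrine cells, 28.6 ± 5.97 CPM in stem cells and 27.8 ± 3.25 CPM in the Paneth class, which overlapped each other, and at 16.8 ± 1.57 CPM in transit amplifying cells, below the Paneth range. Of their ephrin-B ligands, Efnb1 was highest in enterocytes (49.1 ± 6.69 CPM against 34.2 ± 1.65 CPM in stem cells). Efnb2 was highest in tuft cells (16.6 ± 7.05 CPM), which overlapped enterocytes (12.4 ± 1.64 CPM), and lay at 2.20 ± 0.479 CPM in stem cells.

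**Figure D1:**
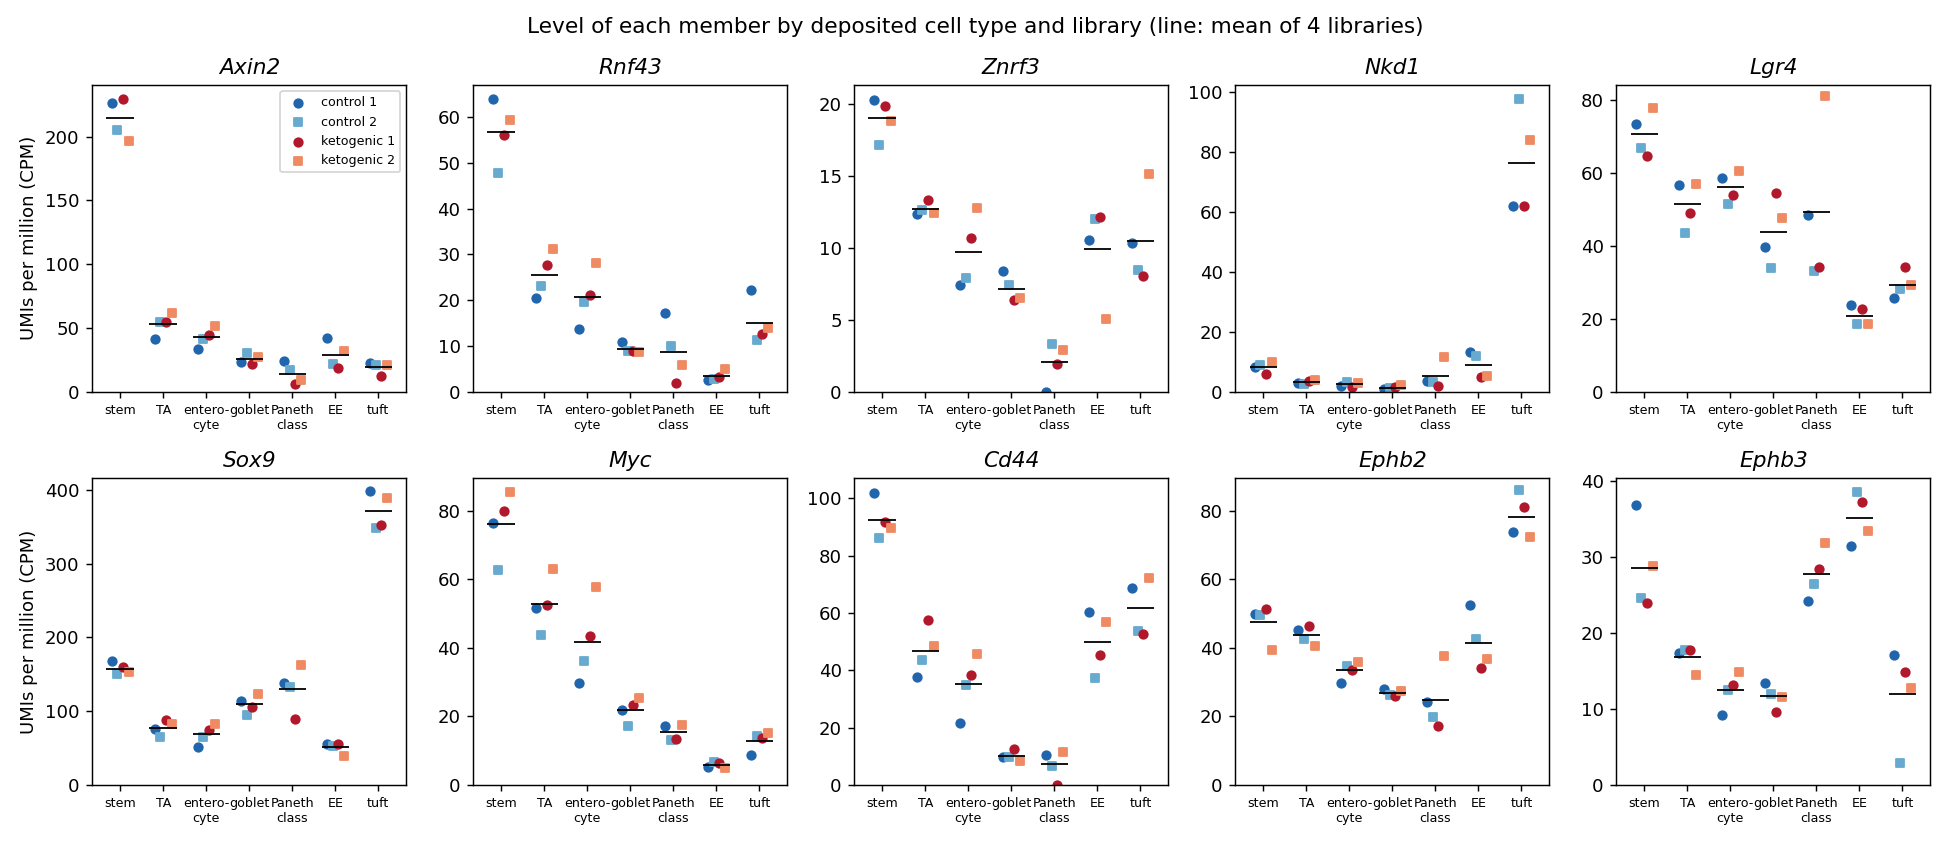
Level of each of the 10 members (CPM, linear axis from 0) in the 7 deposited cell types, with 1 point per library coloured by diet and a line at the mean of 4 libraries. Nkd1, Sox9 and Ephb2 are highest in tuft cells, Ephb3 in enteroendocrine (EE) and the other 6 in stem cells; TA stands for transit amplifying.

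The genes with the most similar patterns were sought over the 28 sums of 7 types and 4 libraries. Compared were 7121 genes with a mean of at least 10 CPM, after ribosomal protein genes, mitochondrial genes and unnamed gene models were left out. Similarity was measured by Pearson's r of log2(CPM + 1). These correlations describe the same 28 sums, which share libraries and cell type labels. Nkd1 passed the minimum only through tuft cells (76.2 CPM), since its mean was at most 8.75 CPM in every other type. Its r values are therefore a description of that type's level and no more. Znrf3 also passed through the types where it was high. Its mean exceeded 10 CPM only in stem, transit amplifying and tuft cells (19.0, 12.7 and 10.5 CPM), so its r values are likewise description only. Sums of few UMIs also enter, such as the 3 Znrf3 UMIs of the Paneth class. The nearest to Axin2 were Tns3, Ifitm3 and Hook1 (r = 0.899, 0.897 and 0.883), to Rnf43 Cdk6, Sdsl and Sdc4 (0.940, 0.931 and 0.922), and to Znrf3 Guf1, Bphl and Pnn (0.921, 0.915 and 0.910). Nkd1 was nearest to Matk, Arhgef28 and Tmem176a (0.920, 0.914 and 0.910), and Lgr4 to the member Myc, then Sypl and Pglyrp1 (0.875, 0.869 and 0.864). Sox9 was nearest to Itpr2, Pim3 and Krt23 (0.884, 0.878 and 0.876), Myc to Slc12a2, Aqp1 and Mybbp1a (0.943, 0.940 and 0.937), and Cd44 to Cct4, Cnn3 and Grb7 (0.938, 0.933 and 0.931). Ephb2 was nearest to Gmcl1, Crot and Med4 (0.907, 0.904 and 0.900). Ephb3 had the loosest neighbours, Fam222a, Bmp7 and Dach1 (0.785, 0.722 and 0.694). Among the 45 pairs of members the median r was 0.208, from -0.325 for Nkd1 with Lgr4 to 0.875 for Lgr4 with Myc.

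Enterocytes held every member, at levels below those of stem cells. The class also held markers of dividing cells. The 7 transit amplifying markers summed to 1198 to 1566 CPM in enterocytes, 1348 to 1517 CPM in stem cells and 2346 to 2609 CPM in transit amplifying cells. The part of immature cells in the enterocyte levels was not tested. The enterocyte level as a ratio to the stem cell level of the same library was 0.149 to 0.264 for Axin2, 0.213 to 0.509 for Cd44, 0.303 to 0.540 for Sox9, 0.595 to 0.912 for Ephb2 and 0.767 to 0.833 for Lgr4. For the stem cell marker Lgr5 it was 0.0787 to 0.141, below each of the 10 members in the same library. Other stem cell markers did not share this, at 0.163 to 0.310 for Olfm4, 0.264 to 0.508 for Ascl2 and 0.324 to 0.531 for Smoc2. Each of these lay above Axin2 in the same library, so the members did not stand apart from the stem cell markers as a group. Control library 1 had the lowest ratio of the 4 libraries for 9 members, all except Lgr4, and for Lgr5, Olfm4, Ascl2 and Smoc2 as well.

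**Figure D2:**
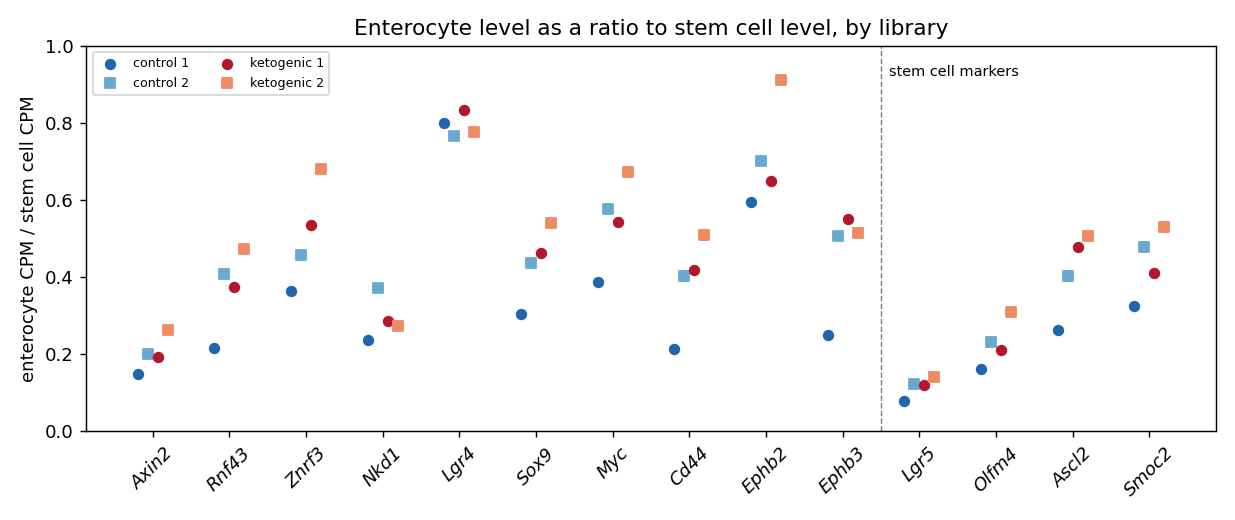
Ratio of the enterocyte level to the stem cell level (CPM over CPM, linear axis) for the 10 members and 4 stem cell markers, 1 point per library. Lgr4 lies at 0.767 to 0.833 in all libraries, and control library 1 is lowest for the other 9 members and the 4 markers.

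Within enterocytes the members were lower towards the villus tip end of a maturation score. Enterocytes of each library were ranked by a score of 7 genes of the upper villus (Ada, Nt5e, Slc28a2, Egfr, Enpp3, Apoa4 and Alpi) and divided into 3 equal parts. The parts are ranges of a score, not cell types. From 45.4% to 57.6% of enterocytes per library had no UMI of these genes and a score of 0, so the lowest part is a subset of those cells in deposited order. All 10 members were lower in the highest part than in the lowest in all 4 libraries. No share over all genes is given for this comparison, so the count is a description. Nkd1 was sparse, at 1.77 to 4.82 CPM in the lowest part and 0.477 to 1.62 CPM in the highest. The ratio of the highest to the lowest part was 0.232 to 0.456 for Axin2, 0.207 to 0.589 for Myc, 0.195 to 0.548 for Sox9, 0.494 to 0.660 for Ephb2 and 0.759 to 0.966 for Lgr4. For the proliferation marker Mki67 it was 0.680 to 1.06. Median depth did not run along the score, at 6316.5 to 8667.0 UMIs in the lowest part, 8250.5 to 11266.0 in the middle and 5441.5 to 9574.0 in the highest.

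**Figure D3:**
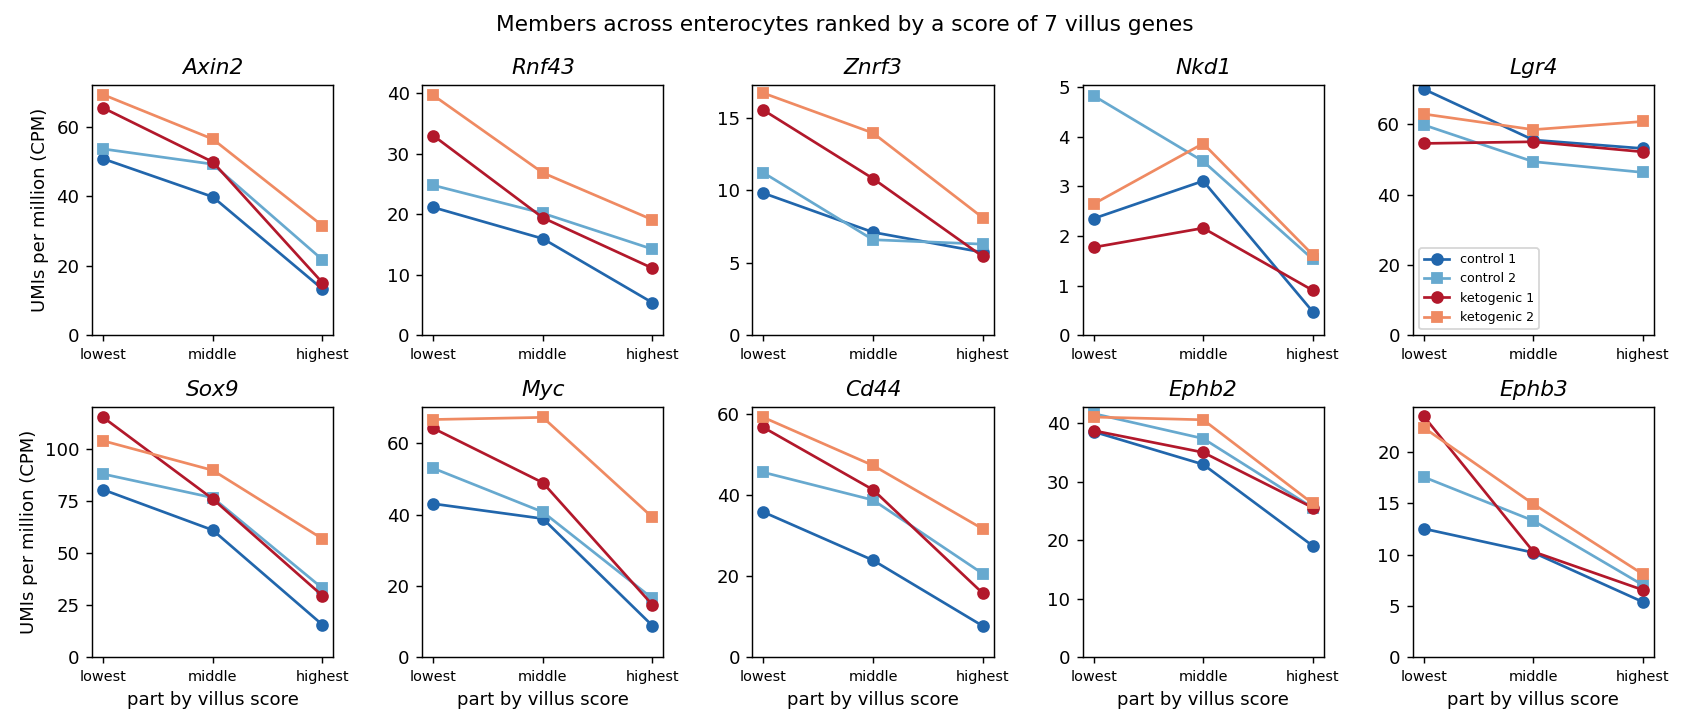
Level of the 10 members (CPM, linear axis from 0) in 3 equal parts of the enterocytes of each library, ranked by a score of 7 villus genes. Every member is lower in the highest than in the lowest part in all 4 libraries, with Lgr4 the flattest (ratio 0.759 to 0.966).

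The comparison of diets asked whether the ketogenic diet moved these genes in any cell type. Ketogenic was tested against control with edgeR on all genes of a cell type, 2 libraries against 2, and a gene was called at an adjusted p under 0.05. A log2 fold change is ketogenic minus control.

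In stem cells, where Wnt signalling is strongest, 0 of 10 members were called by edgeR, 0 had an unadjusted p under 0.05 and 0 were called by DESeq2. Of all 9514 genes tested there, 0.336% were called by edgeR, 6.42% had an unadjusted p under 0.05 and 0.147% were called by DESeq2. The median log2 fold change of the members was -0.01, from -0.17 for Ephb2 to 0.27 for Myc. Axin2 was at -0.02 ± 0.12 (SE), with a 95% interval of -0.27 to 0.24, and Sox9 at -0.01 ± 0.12, with an interval of -0.26 to 0.24. Rnf43, Lgr4 and Cd44 had intervals of -0.23 to 0.40, -0.24 to 0.34 and -0.31 to 0.23. Myc was the member whose diets did not overlap, at 76.5 and 62.8 CPM in control and 80.0 and 85.6 CPM in ketogenic libraries (0.27 ± 0.14, adjusted p = 0.788). In 16.9% of all genes tested both ketogenic libraries likewise lay above both control libraries. Over the members other than Nkd1 the intervals ran from -0.58 (Ephb3) at the lowest to 0.56 (Myc) at the highest, and that of the sparse Nkd1 ran from -0.72 to 0.68. The stem cell markers of these cells overlapped between diets, at 1798.2 and 1835.8 against 1777.5 and 1815.0 CPM in sum, whereas the 8 enterocyte markers did not, at 688 and 819 against 886 and 866 CPM. The enteroendocrine markers were lower without overlap, at 35.4 and 48.7 against 33.3 and 30.6 CPM, and so were the sparse immune markers. The part of these marker levels in the members' values was not tested.

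In transit amplifying cells, the dividing progeny of stem cells, 9 of 10 members were higher on the ketogenic diet. The median log2 fold change was 0.29 for the members and 0.0049 for all genes tested. Of the 10, 0 were called by edgeR or DESeq2, against 0.715% of 10069 genes by edgeR and 0.546% by DESeq2. Rnf43 lay at 20.5 and 23.0 CPM in control and 27.6 and 31.1 CPM in ketogenic libraries, without overlap (0.44 ± 0.15, adjusted p = 0.335). Cd44 lay at 37.6 and 43.4 CPM in control and 57.4 and 48.6 CPM in ketogenic libraries (0.40 ± 0.14, adjusted p = 0.363), and Sox9 at 75.5 and 64.7 against 88.5 and 82.0 CPM (0.31 ± 0.11, adjusted p = 0.368). Those of Myc were 51.7 and 43.8 against 52.6 and 63.1 CPM (0.31 ± 0.12, adjusted p = 0.462). These 4 had an unadjusted p under 0.05 and were higher, as were 4.77% of all genes. Counting Nkd1, at 2.66 to 3.69 CPM, 5 members lay above control without overlap, against 17.5% of all genes. Axin2 overlapped at 41.6 and 54.8 against 54.8 and 61.3 CPM (0.27 ± 0.14). Ephb2 and Ephb3 were at 0.00 ± 0.13 and -0.11 ± 0.19. Without control library 2, which leaves 1 control library, the log2 fold changes of Axin2 and Cd44 were 0.53 and 0.54. The 6 stem cell markers summed to 716.2 and 786.0 CPM in control and 818.9 and 883.5 CPM in ketogenic transit amplifying cells. In the same cells the 7 Paneth markers lay at 127 and 104 against 361 and 195 CPM, and the 8 enterocyte markers lay at 1211 and 1326 against 1429 and 1328 CPM. All 3 sums were higher on the ketogenic diet without overlap, and their part in the members' differences was not tested.

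In enterocytes 9 of 10 members were higher on the ketogenic diet, and again 0 of 10 were called by edgeR or DESeq2 (background 0.18% of 11697 genes by edgeR and 1.5% by DESeq2). Myc lay at 29.7 and 36.3 CPM in control and 43.5 and 57.7 CPM in ketogenic libraries, or 0.61 ± 0.16 on the log2 scale (edgeR adjusted p = 0.258, DESeq2 adjusted p = 0.0911). Znrf3 lay at 7.38 and 7.86 CPM in control and 10.6 and 12.8 CPM in ketogenic libraries (0.62 ± 0.15, adjusted p = 0.247). The diets did not overlap for either gene. Cd44 was at 21.7 and 34.8 against 38.5 and 45.6 CPM (0.57 ± 0.22, adjusted p = 0.456), and control library 1 was its lowest value by a wide gap. Rnf43 was at 13.8 and 19.6 against 21.1 and 28.1 CPM (0.56 ± 0.20, adjusted p = 0.429), Sox9 at 50.8 and 65.5 against 74.2 and 82.9 CPM (0.44 ± 0.14, adjusted p = 0.391), and Axin2 at 33.7 and 41.3 against 44.3 and 51.8 CPM (0.36 ± 0.14, adjusted p = 0.461). Ephb3 (0.37 ± 0.18), like these 6, did not overlap between diets, whereas Ephb2 (0.11 ± 0.12), Lgr4 (0.06 ± 0.11) and Nkd1 (-0.24 ± 0.36) did.

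In all, 6 members were higher in enterocytes at an unadjusted p under 0.05, as were 4.46% of all genes, and 7 lay above control without overlap, against 21.3% of all genes. The median log2 fold change was 0.40 for the members and 0.02 for all genes tested. Without control library 2, which leaves 1 control library, the log2 fold changes were 0.51 for Axin2, 0.83 for Rnf43 and 0.62 for Sox9. Those of Myc and Cd44 were 0.76 and 0.95. Over all 4 libraries edgeR called Myc when the low-count filter was dropped (0.60, edgeR adjusted p = 0.0419). The 6 stem cell markers summed to 443.0 and 711.5 CPM in control enterocytes and 682.7 and 770.5 CPM in ketogenic enterocytes. Control library 1 was lowest there too, and the diets overlapped. The median depth of enterocytes was 8413.5 and 7342.0 UMIs on the control and 9323.0 and 9629.0 on the ketogenic diet. Other marker sums in enterocytes did separate by diet. The 7 Paneth markers lay at 99.0 and 173 CPM in control and 376 and 214 CPM in ketogenic libraries, and the 6 tuft markers at 1.98 and 2.83 against 3.14 and 4.57 CPM. The stromal and endothelial markers lay at 0.275 and 0.154 against 0.535 and 0.487 CPM, with 3 of 7 genes at 0. The immune markers were lower, at 3.14 and 2.77 against 0.535 and 2.62 CPM, with 1 of 7 genes at 0. The part of marker levels and depth in the differences was not tested.

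By parts of the villus score, 7 members lay above control in both ketogenic libraries in the lowest part, 4 in the middle part and 1, Ephb2, in the highest. Of all genes tested in enterocytes, 19.3%, 18.6% and 16.9% did so in the same parts. In the lowest part these were Axin2, Rnf43, Znrf3, Sox9, Myc, Cd44 and Ephb3. Cd44 there lay at 35.8 and 45.6 CPM in control and 56.7 and 59.2 CPM in ketogenic libraries, and Ephb3 at 12.5 and 17.6 against 23.5 and 22.4 CPM. The stem cell marker Lgr5 did not overlap in the lowest part either, at 27.0 and 34.4 against 35.5 and 41.3 CPM, whereas Olfm4 and Ascl2 did. In the highest part ketogenic library 1 lay below at least 1 control library for the other 9 members. That library had the lowest median depth there, 5441.5 UMIs, and the highest mitochondrial share, 18.1% against 12.6% to 13.4%, whose part in this was not tested. Myc, for example, lay there at 8.90 and 16.6 CPM in control and 14.7 and 39.3 CPM in ketogenic libraries.

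The diet effect in stem cells was set against that in enterocytes in a single edgeR fit with library as a block. The difference passed for 0 of 10 members, against 0.259% of 11570 genes. The stem cell effect minus the enterocyte effect was -0.60 ± 0.19 for Cd44 (adjusted p = 0.279) and -0.42 ± 0.15 for Sox9 (adjusted p = 0.437). For Axin2, Rnf43 and Znrf3 it was -0.36 ± 0.15, -0.46 ± 0.20 and -0.55 ± 0.27 (adjusted p = 0.621, 0.646 and 0.711). These 5 had an unadjusted p under 0.05, as did 6.94% of all genes. Without control library 2, which leaves 1 control library, the difference passed for Axin2, Rnf43, Sox9, Myc, Cd44 and Ephb3. The share of all genes that passed in that fit is not given, so these calls are not read as particular to the members.

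**Figure D4:**
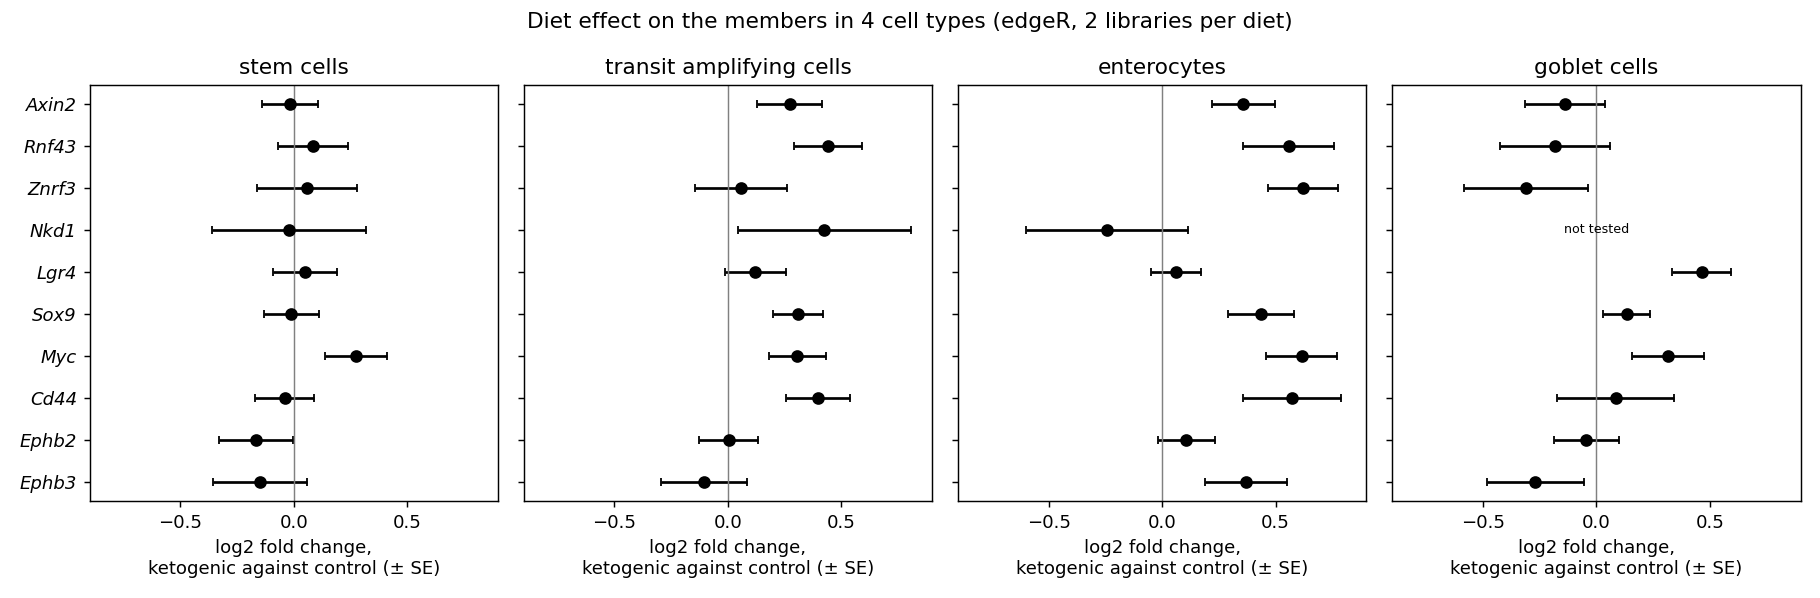
Log2 fold change of each member, ketogenic against control, with its standard error (edgeR, 2 libraries per diet), in stem, transit amplifying, enterocyte and goblet cells; 0 means no difference. The stem cell values lie between -0.17 and 0.27 and the enterocyte values between -0.24 and 0.62, and none was called.

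Goblet cells, the mucus producers, gave another order. Lgr4 lay at 39.6 and 34.0 CPM in control and 54.5 and 47.6 CPM in ketogenic libraries, without overlap (0.46 ± 0.13, adjusted p = 0.182 by edgeR). It was 1 of 9 members tested, of which 0 were called by edgeR or DESeq2 and 1 had an unadjusted p under 0.05 (background 0.521% called by edgeR, 0.24% by DESeq2 and 4.43% higher at the unadjusted p). Lgr4 was called without ketogenic library 2, in a fit with 1 ketogenic library left, and the share of all genes called in that fit is not given. Marker sums of other types also separated by diet in goblet cells. The enterocyte markers lay at 1807 and 1859.6 CPM in control and 2370.0 and 2062 CPM in ketogenic libraries, the Paneth markers at 2080.1 and 1816 against 2177 and 2229.8 CPM, and the enteroendocrine markers lower at 365 and 74.4 against 67.2 and 51.3 CPM. Their part in the values of Lgr4 was not tested. Of the tested members, Lgr4 and Myc lay above control without overlap, against 20% of all genes. Rnf43, Znrf3 and Ephb3 lay below control in both ketogenic goblet libraries (-0.18 ± 0.24, -0.31 ± 0.27 and -0.27 ± 0.21), as did 17.4% of all genes, although they lay above control in enterocytes. The difference of the diet effects, tested because of this, was -0.73 ± 0.28, -0.91 ± 0.30 and -0.63 ± 0.26 (adjusted p = 0.428, 0.303 and 0.464 by edgeR) and passed for 0 of them, against 0.61% of all genes. For Rnf43 in goblet against transit amplifying cells it was -0.62 ± 0.28 (adjusted p = 0.660, background 0.34%), and for Axin2 in tuft cells against enterocytes -0.73 ± 0.41 (adjusted p = 0.986, background 0.203%).

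In the rarer types fewer members had enough counts to test. Of 9 in tuft cells, 6 in enteroendocrine cells and 2 in the Paneth class, 0 were called by edgeR or DESeq2 and 0 had an unadjusted p under 0.05, with 0.0144%, 0.0582% and 0.44% of all genes called by edgeR, 0.0287%, 0.0291% and 0.44% by DESeq2, and 5.34%, 4.61% and 7.68% at an unadjusted p under 0.05. The tuft-rich Sox9 and Nkd1 were at -0.03 ± 0.12 and -0.18 ± 0.24 in tuft cells, with 95% intervals of -0.29 to 0.24 and -0.70 to 0.35. Ephb2 was at -0.09 ± 0.20 there. The enteroendocrine level of Ephb3 was 31.5 and 38.6 CPM in control and 37.2 and 33.5 CPM in ketogenic libraries (-0.0029 ± 0.29), so the diets overlapped. In the Paneth class the log2 fold change of Sox9 was 0.30 ± 0.23. Its diets overlapped, at 138 and 132 CPM in control and 89.3 and 162 CPM in ketogenic libraries. The fold change is on the normalised scale of edgeR, which these CPM values are not. Lgr4, at 33.1 to 81.1 CPM, was at 0.87 ± 0.43, from 10 to 28 UMIs per library, and its diets overlapped too. The marker content of the class itself differed between diets without overlap. Its 7 Paneth markers summed to 96437 and 47625 CPM in control and 219360 and 167560 CPM in ketogenic libraries, and the transit amplifying markers to 418 and 483 against 325 and 261 CPM. The stem, enterocyte and enteroendocrine marker sums were also lower without overlap, the stem sum at 276 and 248 against 198 and 240 CPM. The immune markers were higher, at 6.91 and 3.31 against 26.6 and 11.6 CPM. The part of this difference in the values of Sox9 and Lgr4 was not tested.

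Over all cells of a library, all 10 members were higher on the ketogenic diet, with Ephb2 at 0.01 and Lgr4 at 0.07 on the log2 scale. The median log2 fold change was 0.22 for the members and 0.01 for all genes tested. Of the 10, 0 were called by edgeR or DESeq2 (0.172% of 12784 genes by edgeR and 1.65% by DESeq2). Sox9 and Myc had an unadjusted p under 0.05 and were higher, as were 5.62% of genes. With Znrf3, Cd44 and Ephb3 they made 5 members above control without overlap, against 24.8% of all genes. Myc was at 33.9 and 36.6 CPM in control and 40.7 and 54.3 CPM in ketogenic libraries (0.41 ± 0.14, adjusted p = 0.381), and Sox9 at 78.0 and 83.2 against 94.9 and 105 CPM (0.30 ± 0.10, adjusted p = 0.367). The log2 fold change of Myc was 0.21 without ketogenic library 2 and 0.0054 with an equal mix of the 7 types in every library, while that of Sox9 was 0.24 and 0.26. With the equal mix Axin2, Nkd1 and Ephb2 turned negative (-0.19, -0.40 and -0.35). From 41.2% to 47.7% of the Axin2 UMIs of a library, and at least 40.6% of its Sox9 UMIs, came from enterocytes, the most numerous type.

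Of 82 further genes of the Wnt pathway, 48 to 62 had enough counts to test in each of 4 cell sets (all, stem, transit amplifying and enterocyte), and 1 was called in any of them. Of all genes tested, 0.172%, 0.336%, 0.715% and 0.18% were called in these sets. Sfrp5, a secreted antagonist that binds Wnt ligands, fell in transit amplifying cells. It lay at 52.4 and 55.7 CPM in control and 32.7 and 27.0 CPM in ketogenic libraries, or -0.85 ± 0.14 on the log2 scale (edgeR adjusted p = 0.0127, DESeq2 adjusted p = 0.0334, range over alternatives 5.23e-07 to 0.0769). The control libraries lay close together and well above both ketogenic libraries. Without ketogenic library 2 it was not called (-0.67, adjusted p = 0.0769). In stem cells Sfrp5 was at 75.4 and 86.3 against 62.5 and 51.8 CPM, again without overlap, and did not pass (-0.53 ± 0.15, adjusted p = 0.213). Enterocytes held 23.2 and 37.7 against 22.1 and 20.8 CPM (-0.50 ± 0.23, edgeR adjusted p = 0.530). Over all cells Sfrp5 was at 29.9 and 44.1 against 26.8 and 24.5 CPM (-0.55 ± 0.19, edgeR adjusted p = 0.4035). In both sets the control libraries lay far apart, with control library 1 near the ketogenic libraries, and Sfrp5 did not pass. Its gene lies on chromosome 19, from 42197971 to 42202252 on the minus strand.

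No other gene of the list passed by edgeR, and DESeq2 called Sfrp5 in transit amplifying cells and 0 genes of the list in the other 3 cell sets. Over all cells 62 of the 82 genes were tested, 0 rose and 0 fell, with 6 higher and 3 lower at an unadjusted p under 0.05, against 5.62% and 5.33% of all genes. In stem cells 48 of the 82 genes were tested, 0 rose and 0 fell by edgeR, with 1 higher and 3 lower at an unadjusted p under 0.05 (3.61% and 2.82% of all genes) and a median log2 fold change of -0.03. In transit amplifying cells 50 were tested, 0 rose and 1 fell, with 2 higher and 2 lower at the unadjusted p (4.77% and 4.44% of all genes). In enterocytes 57 were tested, 0 rose and 0 fell, with 3 higher and 1 lower at the unadjusted p (4.46% and 5.45% of all genes) and a median of 0.02. The Wnt target Ascl2, a transcription factor of stem cells, lay at 149 and 140 CPM in control and 95.8 and 108 CPM in ketogenic stem cells, without overlap, and did not pass (-0.49 ± 0.12, adjusted p = 0.116). Lgr5 was at -0.07 ± 0.12 in stem cells, Ctnnb1, which encodes beta-catenin, at 0.01 ± 0.13, and the nuclear factor Tcf7l2 at -0.09 ± 0.16. Efnb1 was at -0.22 ± 0.13 and Efnb2 at 0.08 ± 0.18 in enterocytes. A missed threshold does not show that a gene was unaffected.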

How the data were processed

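The authors deposited raw UMI counts for every gene and cell, and a table with each cell's library, type and diet. The submitters' processing notes name Cell Ranger 2.1.0 and mm10. How cells were filtered, doublets handled and types assigned is not stated in the sources used here; deposited types were used and no doublet caller was run.

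Counts were summed per library and type and tested with edgeR 4.0.16 (quasi-likelihood, TMM, filterByExpr by diet) in R 4.3.3, with Benjamini-Hochberg adjustment over all genes tested and a threshold of 0.05. Printed CPM values divide by the plain sum. Standard errors come from the fold change and F statistic, and 95% intervals from the fit's total degrees of freedom. An exact permutation test of 2 against 2 libraries cannot go below p = 0.33. The alternatives used RLE size factors, DESeq2 1.42.0, no low-count filter, cells under 10% mitochondrial UMIs, leaving out the 6% of cells with most UMIs per library and type, thinned sums, an equal mix of types, a replicate block, and each library left out in turn, its partner then assumed to vary like the other diet. Shares carry counting error only. The tests were checked on simulated counts.

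The members and lists were chosen with earlier results of these data known. All members are named, as are their 3 nearest genes, the called genes of the 82 further Wnt genes, and Lgr5, Ascl2, Ctnnb1, Tcf7l2, Efnb1 and Efnb2. Tests between goblet or tuft cells and other types were chosen after seeing the data. Gene positions are from GENCODE M21 (mm10). Replicate libraries differed beyond sampling noise (chi-square over degrees of freedom 28.3 in control, 21.3 in ketogenic).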

Additional observations from a re-analysis of the deposited data

How the results depend on the processing

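Over the alternatives, 0 members were called in all cells, stem cells, the Paneth class, enteroendocrine cells and tuft cells under every setting run. In enterocytes 1 member, Myc, was called with no low-count filter (0.60, edgeR adjusted p = 0.0419) and with the replicate block (0.61, adjusted p = 0.0455). Leaving out each library in turn gave 0 to 5 called members in enterocytes, 0 to 2 in transit amplifying cells, 0 to 1 in goblet cells and 0 to 6 for the difference between stem cells and enterocytes, the highest without control library 2 except in goblet cells (ketogenic library 2). Replicate numbers do not mark a shared batch in the labels. The log CPM differences between libraries 1 and 2 of the control diet were correlated over genes with those of the ketogenic diet. These correlations of differences were -0.037 to 0.0824 over the cell sets, so same-numbered libraries were not treated as pairs.

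Genes called over the whole table, 22 in all cells, 32 in stem cells, 72 in transit amplifying cells and 21 in enterocytes, moved more. DESeq2 called 211 in all cells, 14 in stem cells and 176 in enterocytes. Without the low-count filter the counts were 407, 74, 279 and 313 in the order above, and with the replicate block 69, 99, 200 and 137. Without the 6% of cells with most UMIs they were 46 in transit amplifying cells and 4 in enterocytes. Cells under 10% mitochondrial UMIs gave 51 in enterocytes, and thinning gave 53 in stem cells and 33 in enterocytes. Leaving out each library gave 29 to 364 in all cells, 48 to 100 in stem cells, 37 to 290 in transit amplifying cells and 12 to 760 in enterocytes. The cause was not tested.

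Of 461 log2 fold changes recomputed under an alternative, 44 turned sign, 19 of them in stem cells and 28 with 1 library left out. With the mitochondrial limit these were Ephb2 in all cells (-0.049) and enterocytes (-0.0077), and Nkd1 (0.060), Sox9 (0.0029) and Cd44 (0.12) in stem cells. With an equal mix of types they were Axin2 (-0.19), Nkd1 (-0.40) and Ephb2 (-0.35) in all cells. Without the cells of most UMIs they were Rnf43 (-0.012) and Nkd1 (0.091) in stem cells and Ephb2 (-0.0042) in transit amplifying cells. Thinning turned Axin2 (0.034) and Nkd1 (0.30) in stem cells and Znrf3 (-0.056) in transit amplifying cells. Ephb2 in transit amplifying cells also turned with no filter (-0.011) and with the replicate block (-0.0020). Leaving out each library gave, in all cells, -0.028 to 0.31 for Axin2, -0.15 to 0.45 for Nkd1, -0.075 to 0.085 for Ephb2 and -0.029 to 0.16 for Lgr4. In stem cells it gave -0.14 to 0.12 for Axin2, -0.057 to 0.043 for Sox9, -0.13 to 0.045 for Cd44, -0.41 to 0.11 for Ephb3, -0.099 to 0.26 for Rnf43, -0.040 to 0.14 for Znrf3, -0.53 to 0.21 for Nkd1, -0.083 to 0.15 for Lgr4 and -0.35 to 0.071 for Ephb2. In transit amplifying cells it gave -0.045 to 0.29 for Lgr4, -0.13 to 0.13 for Ephb2, -0.024 to 0.14 for Znrf3 and -0.29 to 0.078 for Ephb3, and in enterocytes -0.011 to 0.22 for Ephb2, -0.59 to 0.15 for Nkd1 and -0.040 to 0.15 for Lgr4. Depth limits the rare types most, where Znrf3 and Nkd1 had too few UMIs to test in the Paneth class and enteroendocrine cells.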
